A study of Mus musculus with 4 samples.

Results

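The genes of the elastic fibre and of the lysyl oxidases that cross-link it were described in mouse embryonic fibroblasts, the connective tissue cells of embryos kept in culture. The list holds 10 genes, Eln, Fbn1, Fbln1, Fbln2, Fbln5, Lox, Loxl1, Loxl2, Mfap2 and Mfap5, and was chosen in part on measured values: earlier results of the same arrays, in which the polysome minus total difference of Eln stood out, were in view. Members were found by symbol, taking every probe set (a group of short probes for 1 transcript) annotated to a member alone. This gave 13 probe sets for 8 of the 10 genes, out of 12393 named genes on the array. All 8 were among the 7179 genes whose highest value reached 7.53, the median of all values and the floor used here. Fbn1, the main fibrillin, had no annotated probe set, and the probe set that names Loxl2 is shared with Gm21451. These genes were therefore not counted.

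There were 4 arrays, 1 per group: polysome RNA of cells labelled Npm1+/-, polysome RNA of cells labelled Npm1+/+, total RNA of the Npm1+/- label and total RNA of the Npm1+/+ label. All 4 carried the strain label C57/BJ6, and polysome RNA means RNA bound to ribosomes, separated on a sucrose gradient. Npm1 encodes nucleophosmin, a nucleolar protein of ribosome assembly, and the study asked how its partial loss alters which RNAs are translated. The labels do not say how the Npm1 copy was lost, which fractions of the gradient were taken, or how many embryos or cultures each array represents. Each group has 1 array, so no test was run and no value below has a replicate error.

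Values are log2 intensities summarised per probe set. Array medians ran between 7.47 and 7.59, and pairs of arrays correlated at 0.981 to 0.991 over all probe sets. The Npm1 probe sets did not follow the genotype labels: 1 of them stood at 12.84 in Npm1+/- polysome RNA and 12.93 in Npm1+/+ polysome RNA, and at 11.96 in Npm1+/- total RNA and 11.91 in Npm1+/+ total RNA. The other differed by 0.06 in polysome RNA and 0.07 in total RNA between the genotype labels. Every genotype difference below is thus a difference between arrays labelled Npm1+/- and arrays labelled Npm1+/+. As a measure of spread between probe sets, 2 probe sets of the same gene were compared on the same arrays over 2700 genes. Their differences disagreed with an SD of 0.24 for polysome minus total RNA under the Npm1+/- label and 0.28 under the Npm1+/+ label, and of 0.28 for Npm1+/- minus Npm1+/+ in polysome RNA and 0.32 in total RNA. A difference between labels was read against this spread and against the share of all genes past 2-fold. An offset shared by the probe sets of an array cancels in this spread. It is therefore not the error of a difference between arrays.

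Elastic fibres let skin, lung and artery walls recoil. Fibroblasts and smooth muscle cells secrete tropoelastin, the product of Eln, which collects on microfibrils built of fibrillin and the microfibril-associated glycoproteins, with fibulins bridging the components. Lysyl oxidases then oxidise lysines so that the chains become covalently cross-linked. The same enzymes cross-link collagen.

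Promoter sequence from RefSeq (GRCm38.p6) covered 5 of the 10 members, of which 4 were measured. The windows of Mfap2, a member whose values differed upward in both kinds of comparison, and of Fbln5, the member with the narrowest range over the arrays, are shown. Each is the 250 bases before the annotated start farthest upstream, 5′ to 3′ on the strand of the gene, at chr4:141010174-141010423 (plus strand) for Mfap2 and chr12:101819120-101819369 (minus strand) for Fbln5. Capitals mark matches on either strand to the GC box, spelled GGGCGG, or to the motif CCAAT.
Mfap2: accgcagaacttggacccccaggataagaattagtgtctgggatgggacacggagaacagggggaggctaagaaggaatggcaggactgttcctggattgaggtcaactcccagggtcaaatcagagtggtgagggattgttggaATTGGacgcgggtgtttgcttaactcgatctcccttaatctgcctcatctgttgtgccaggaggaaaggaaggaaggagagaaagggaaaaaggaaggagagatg
Fbln5: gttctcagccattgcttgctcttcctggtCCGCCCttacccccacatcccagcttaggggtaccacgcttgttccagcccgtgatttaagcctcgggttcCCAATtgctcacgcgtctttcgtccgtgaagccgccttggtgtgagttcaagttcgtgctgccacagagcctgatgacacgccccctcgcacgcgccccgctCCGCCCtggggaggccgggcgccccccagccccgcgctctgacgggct
The Mfap2 window held 0 GC boxes and 1 CCAAT box at 51.2% G and C, and the Fbln5 window held 2 GC boxes and 1 CCAAT box at 65.2%. Each gene has a further window at a start downstream, where the counts turn round, with 2 GC boxes at 68.8% for Mfap2 and 0 at 49.6% for Fbln5. Over 32851 such windows of 27025 genes, 32.7% held a GC box and 33.8% a CCAAT box, and the median G and C share was 52.4%. Neither window held the TATA box, spelled TATAAA and found in 12.4% of all windows, or the AP-1 site, spelled TGANTCA and found in 6.75%. Each held 1 match to the E box, spelled CANNTG, a motif found in 66.2% of windows and not marked. In Fbln5 that match overlaps the CCAAT motif. These matches describe the letters only.

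By the brightest probe set of each gene, elastin was the only measured member past 2-fold between fractions. It was lower in polysome RNA under both genotype labels. Its brighter probe set, 1420855_at, stood at 8.74 in Npm1+/- polysome RNA and 8.90 in Npm1+/+ polysome RNA, against 10.47 in Npm1+/- total RNA and 10.70 in Npm1+/+ total RNA. Both polysome arrays lay below both total arrays, and 98.7% of the variation among the 4 values ran along the fraction label. Polysome minus total RNA was -1.73 under the Npm1+/- label, 3.32-fold lower, and -1.79 under the Npm1+/+ label, 3.46-fold lower. Only 3 of the 7179 genes had a more negative difference under the Npm1+/- label and 4 under the Npm1+/+ label. Since this contrast drew attention to the gene, these ranks describe it and support nothing further.

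The second Eln probe set, 1420854_at, agreed in direction and not in size. It stood at 7.99 in Npm1+/- polysome RNA and 8.10 in Npm1+/+ polysome RNA, against 8.72 in Npm1+/- total RNA and 8.90 in Npm1+/+ total RNA. Its polysome minus total differences were -0.73 under the Npm1+/- label, 1.66-fold lower, and -0.80 under the Npm1+/+ label, 1.75-fold lower, so it stayed short of 2-fold. Both probe sets are annotated to the same transcript record. The gap between their differences was 1.00 under the Npm1+/- label and 0.99 under the Npm1+/+ label. A gap that large occurred in 6 of 2700 genes (0.222%) under the Npm1+/- label and in 13 (0.481%) under the Npm1+/+ label. With the mean of both probe sets, the elastin difference was -1.23 under the Npm1+/- label and -1.30 under the Npm1+/+ label, still past 2-fold. These values set polysome RNA against total RNA of whole cultures. They do not give the amount of elastin RNA per cell or the share of cells making it. The cause of the fraction difference was not tested.

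**Figure D1:**
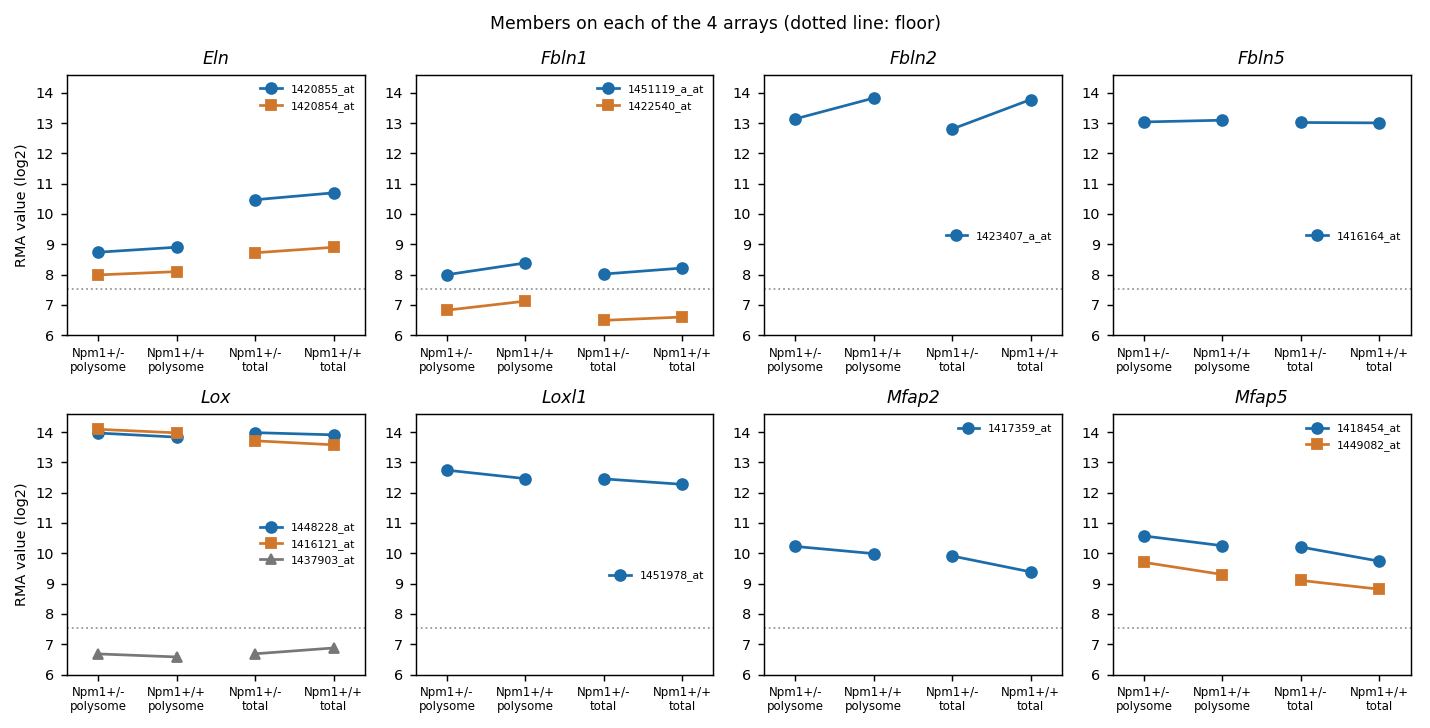
Log2 RMA values (y axis) of every probe set of the 8 measured members on the 4 arrays (x axis, Npm1+/- polysome, Npm1+/+ polysome, Npm1+/- total, Npm1+/+ total), with 1 panel per gene, 1 point per array and lines joining the genotype labels of the same fraction. The brighter Eln probe set lies at 8.74 and 8.90 in polysome RNA against 10.47 and 10.70 in total RNA, while the Fbln2 line climbs toward the Npm1+/+ label in both fractions.

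The microfibril-associated glycoproteins differed the other way, with higher values in polysome RNA. Mfap2, which encodes MAGP-1, a small glycoprotein that binds fibrillin and tropoelastin, stood at 10.23 in Npm1+/- polysome RNA and 9.99 in Npm1+/+ polysome RNA, against 9.91 in Npm1+/- total RNA and 9.39 in Npm1+/+ total RNA. Both polysome arrays lay above both total arrays, by 0.32 (1.24-fold) under the Npm1+/- label and 0.60 (1.52-fold) under the Npm1+/+ label. Of all genes, 820 differed further upward under the Npm1+/- label and 233 under the Npm1+/+ label. These differences were 1.31 and 2.18 times the SD between probe sets in the Npm1+/- and the Npm1+/+ pair of arrays. The median gene was itself 0.07 higher in polysome RNA under the Npm1+/- label and 0.14 higher under the Npm1+/+ label. The excess of Mfap2 over it was 0.25 and 0.46 for the same labels.

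Mfap5, which encodes the related MAGP-2, had a similar profile on both of its probe sets. The brighter one, 1418454_at, stood at 10.57 in Npm1+/- polysome RNA and 10.25 in Npm1+/+ polysome RNA, against 10.21 in Npm1+/- total RNA and 9.74 in Npm1+/+ total RNA. Polysome minus total RNA was 0.36 under the Npm1+/- label and 0.51 under the Npm1+/+ label. The other, 1449082_at, stood at 9.70 in Npm1+/- polysome RNA and 9.30 in Npm1+/+ polysome RNA, against 9.10 in Npm1+/- total RNA and 8.82 in Npm1+/+ total RNA. Its differences were 0.60 and 0.48 for the Npm1+/- and the Npm1+/+ label. On both probe sets, the polysome array exceeded the total array under each genotype label. The excess of the brighter one over the median gene was 0.29 under the Npm1+/- label and 0.37 under the Npm1+/+ label.

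The fibulins, calcium-binding glycoproteins that link elastin to microfibrils and to the basement membrane, stayed well short of 2-fold between fractions. Fbln5 encodes fibulin-5, which binds tropoelastin and is needed for normal elastic fibres in mice. It stood at 13.04 in Npm1+/- polysome RNA and 13.09 in Npm1+/+ polysome RNA, against 13.02 in Npm1+/- total RNA and 13.00 in Npm1+/+ total RNA. All 4 values lay within 0.088, the narrowest range of the 8 members, and the differences between fractions were 0.02 under the Npm1+/- label and 0.09 under the Npm1+/+ label, with signs that changed under other scalings.

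Fbln1, whose product is found in elastic fibres and basement membranes, had probe sets near the floor. The brighter one, 1451119_a_at, stood at 7.997 in Npm1+/- polysome RNA and 8.38 in Npm1+/+ polysome RNA, against 8.02 in Npm1+/- total RNA and 8.22 in Npm1+/+ total RNA. Polysome minus total RNA was -0.02 under the Npm1+/- label and 0.17 under the Npm1+/+ label, both within the spread between probe sets, and the first changed sign with the mean of probe sets. Its other probe set, 1422540_at, lay below the floor on all 4 arrays, with 6.83 in Npm1+/- polysome RNA and 7.12 in Npm1+/+ polysome RNA, against 6.49 in Npm1+/- total RNA and 6.60 in Npm1+/+ total RNA.

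Fbln2, which encodes fibulin-2, a ligand of fibrillin, fibronectin and other matrix proteins, stood at 13.14 in Npm1+/- polysome RNA and 13.82 in Npm1+/+ polysome RNA, against 12.80 in Npm1+/- total RNA and 13.77 in Npm1+/+ total RNA. Its fraction difference was 0.34 under the Npm1+/- label, 1.39 times the SD between probe sets, and 0.05 under the Npm1+/+ label, the smaller of which changed sign under other scalings. The fractions overlapped, because the 2 arrays labelled Npm1+/+ were the high ones.

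The lysyl oxidases did not reach 2-fold between fractions on any probe set. Lox, the enzyme that starts cross-linking of elastin and collagen, stood at 13.97 in Npm1+/- polysome RNA and 13.83 in Npm1+/+ polysome RNA, against 13.98 in Npm1+/- total RNA and 13.91 in Npm1+/+ total RNA on probe set 1448228_at. Out of 22690 probe sets it ranked between 22 and 58 from the top of each array. Polysome minus total RNA was -0.01 under the Npm1+/- label and -0.08 under the Npm1+/+ label.

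A second Lox probe set of the same transcript record, 1416121_at, stood at 14.09 in Npm1+/- polysome RNA and 13.97 in Npm1+/+ polysome RNA, against 13.71 in Npm1+/- total RNA and 13.58 in Npm1+/+ total RNA. Here the fraction differences were 0.38 for the Npm1+/- label and 0.39 for the Npm1+/+ label, so the 2 bright Lox probe sets did not share a direction. The highest values of any probe set on the arrays were 14.42 to 14.57, and how far saturation compresses differences so close to the top was not tested. The third probe set, 1437903_at, was below the floor on all arrays, at 6.68 in Npm1+/- polysome RNA and 6.58 in Npm1+/+ polysome RNA, against 6.68 in Npm1+/- total RNA and 6.88 in Npm1+/+ total RNA.

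Loxl1, the lysyl oxidase that mice need to maintain elastic fibres in adult tissue, stood at 12.74 in Npm1+/- polysome RNA and 12.46 in Npm1+/+ polysome RNA, against 12.45 in Npm1+/- total RNA and 12.27 in Npm1+/+ total RNA. Its fraction difference was 0.29 for the Npm1+/- label and 0.19 for the Npm1+/+ label. The probe set annotated to both Gm21451 and Loxl2, which cannot be assigned to either gene, stood at 10.83 in Npm1+/- polysome RNA and 11.29 in Npm1+/+ polysome RNA, against 10.20 in Npm1+/- total RNA and 10.45 in Npm1+/+ total RNA. It was 0.63 higher in polysome RNA for the Npm1+/- label and 0.84 higher for the Npm1+/+ label.

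Counted together, 1 of the 8 measured members, Eln, was at least 2-fold lower in polysome RNA under each genotype label. Over all genes the share 2-fold lower was 0.362% under the Npm1+/- label and 0.39% under the Npm1+/+ label, but since Eln was known to be among them nothing is read from the count. None of the 8 was 2-fold higher, against 0.404% of all genes under the Npm1+/- label and 0.529% under the Npm1+/+ label. The median of the 8 differences was 0.15 under the Npm1+/- label and 0.13 under the Npm1+/+ label, beside medians of 0.07 and 0.14 over the 7179 genes for the same labels. Of the 8, 4 lay above the median gene and 4 below it under each label.

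**Figure D2:**
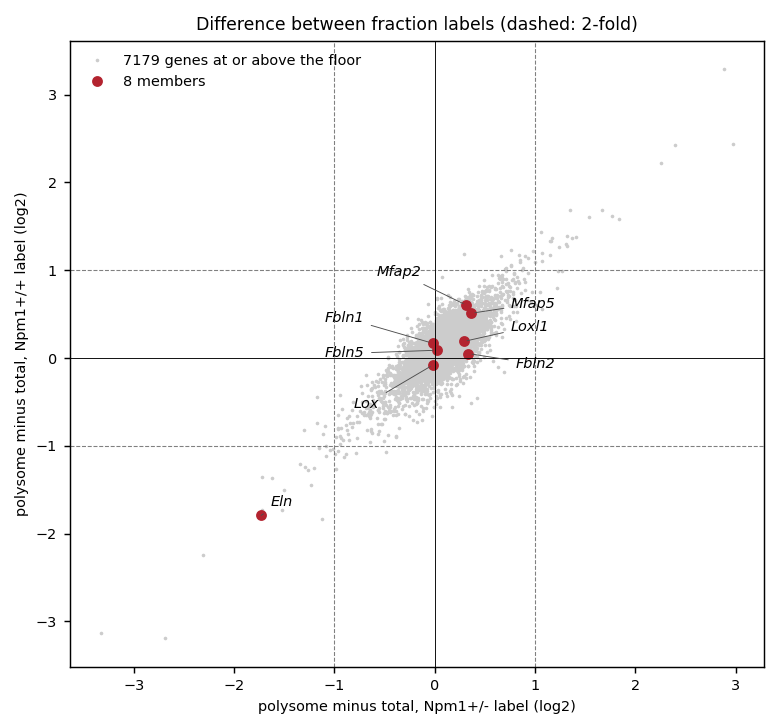
Polysome minus total RNA (log2) under the Npm1+/- label (x axis) against the same under the Npm1+/+ label (y axis), with 1 grey point per gene for 7179 genes, red points for the 8 members, and dashed lines at 2-fold. Eln lies at -1.73 and -1.79, past 2-fold on both axes, and the other 7 members lie in the main cloud.

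Between the genotype labels, Fbln2 differed most among the members and was lower under the Npm1+/- label in both fractions. Npm1+/- minus Npm1+/+ was -0.69 in polysome RNA, 1.61-fold lower, and -0.97 in total RNA, 1.96-fold lower, just short of 2-fold. These were 2.43 times the SD between probe sets in polysome RNA and 3.08 times in total RNA. Genotype carried 92.3% of the variation among its 4 values, and 291 genes in polysome RNA and 118 in total RNA differed further downward. Once a loess trend on signal level was removed, the total RNA difference was -1.04, past 2-fold.

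Fbln1 and Eln were also lower under the Npm1+/- label, by less than Fbln2. Npm1+/- minus Npm1+/+ was -0.39 in polysome RNA and -0.20 in total RNA for Fbln1, and its second probe set gave -0.30 and -0.11 in the same fractions. For Eln it was -0.17 in polysome RNA and -0.23 in total RNA, and the second probe set gave -0.11 and -0.18. The Eln values lay within the spread between probe sets.

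The microfibril-associated glycoproteins were higher under the Npm1+/- label. Mfap2 differed by 0.24 in polysome RNA and 0.52 in total RNA, which is 1.44-fold in total RNA. Mfap5 differed by 0.32 in polysome RNA and 0.47 in total RNA on its brighter probe set, and by 0.40 and 0.29 on the other. Because the median gene was itself 0.11 higher in polysome RNA and 0.19 higher in total RNA, the excess over it was 0.13 in polysome RNA and 0.34 in total RNA for Mfap2, and 0.21 and 0.28 in the same fractions for Mfap5. Once a loess trend was removed the differences were 0.10 and 0.31 for Mfap2 and 0.19 and 0.25 for Mfap5, all within the spread between probe sets.

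Loxl1 and Lox differed less. Loxl1 was 0.28 higher in polysome RNA and 0.18 higher in total RNA under the Npm1+/- label, and its total RNA value lay at the median gene. Lox differed by 0.13 in polysome RNA and 0.07 in total RNA, and Fbln5 by -0.06 in polysome RNA and 0.01 in total RNA. Values this small did not exceed the spread between probe sets, and the Fbln5 value in total RNA changed sign under quantile and loess scaling.

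None of the 8 members was 2-fold apart between genotype labels. The share of all genes 2-fold lower under the Npm1+/- label was 1.17% in polysome RNA and 1.49% in total RNA, and the share 2-fold higher was 0.0836% in polysome RNA and 0.237% in total RNA, so 0 of 8 is near these shares. The member median was 0.04 in polysome RNA and 0.04 in total RNA, beside 0.11 and 0.19 over all genes in the same fractions.

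**Figure D3:**
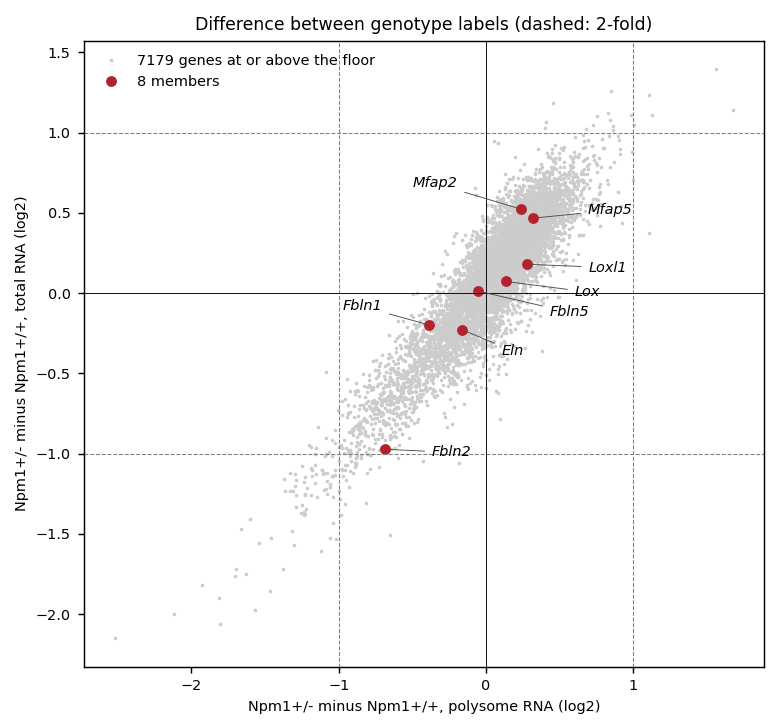
Npm1+/- minus Npm1+/+ (log2) in polysome RNA (x axis) against the same in total RNA (y axis), with 1 grey point per gene for 7179 genes, red points for the 8 members, and dashed lines at 2-fold. Fbln2 lies lowest among the members at -0.69 and -0.97, and Mfap2 and Mfap5 lie highest in total RNA at 0.52 and 0.47.

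Whether a member's ribosome association differed between genotype labels was read from the difference of the fraction differences, Npm1+/- less Npm1+/+. It was 0.06 for Eln, so the low polysome value of elastin was of nearly the same size under both labels. The member values ran between -0.29 for Mfap2 and 0.29 for Fbln2, each 1.30 times the SD of 0.22 between probe sets. Fbln1 gave -0.19, Fbln5 -0.07, Lox 0.06 and Loxl1 0.10. Mfap5 gave -0.15 on its brighter probe set and 0.11 on the other, opposite signs. In this comparison 0% of the 7179 genes reached 2-fold in either direction, and 0 of the 8 members did.

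Other genes of the elastic fibre were taken from a list of 32 partners, of which 27 had a probe set and 24 reached the floor. In polysome minus total RNA 2 of the 24 were at least 2-fold higher under each genotype label and 0 were 2-fold lower. The 2 were Dcn and Adamts10 under the Npm1+/- label, and Dcn and Vcan under the Npm1+/+ label. Over all genes the share 2-fold higher was 0.404% under the Npm1+/- label and 0.529% under the Npm1+/+ label. The share 2-fold lower was 0.362% and 0.39% for the same labels. Dcn, which encodes decorin, a small proteoglycan of collagen and elastic fibres, stood at 10.42 in Npm1+/- polysome RNA and 10.40 in Npm1+/+ polysome RNA, against 9.26 in Npm1+/- total RNA and 9.03 in Npm1+/+ total RNA. Its differences were 1.16 for the Npm1+/- label and 1.37 for the Npm1+/+ label. Adamts10, a secreted protease homologue that binds fibrillin, was 1.05 higher under the Npm1+/- label and 0.75 higher under the Npm1+/+ label. Vcan, the large proteoglycan versican that binds fibrillin microfibrils, was 0.86 higher and 1.00 higher in the same labels. The lowest was Adamtsl4, a microfibril-associated protein, at -0.87 under each label. On its brighter probe set, elastin's difference was more negative than that of each of these 24 partners under both labels. The second Eln probe set was less negative than Adamtsl4, at -0.73 under the Npm1+/- label and -0.80 under the Npm1+/+ label. Since Eln was chosen in part on this contrast, nothing further is read from its place.

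Between genotype labels the partners leaned lower under the Npm1+/- label. Of the 24, 16 lay below 0 in polysome RNA and 17 in total RNA, with medians of -0.26 and -0.33 where all genes had 0.11 and 0.19. Of all 7179 genes, 2631 lay below 0 in polysome RNA and 2415 in total RNA. By the brightest probe set of each gene the 2 past 2-fold were the same in both fractions, Ltbp1 and Ltbp2, latent TGF-beta binding proteins of the microfibril. Over all genes 1.17% in polysome RNA and 1.49% in total RNA were 2-fold lower under the Npm1+/- label. Ltbp1 was 9.97 in Npm1+/- polysome RNA and 11.09 in Npm1+/+ polysome RNA, and 9.88 in Npm1+/- total RNA and 10.98 in Npm1+/+ total RNA. Ltbp2 was 9.60 in Npm1+/- polysome RNA and 10.78 in Npm1+/+ polysome RNA, and 9.86 in Npm1+/- total RNA and 10.96 in Npm1+/+ total RNA. Fbn2, the fibrillin of developing tissue, was short of 2-fold at -0.66 in polysome RNA and -0.82 in total RNA. Loxl3, another lysyl oxidase, was also short of it at -0.70 and -0.79, and so was Vcan at -0.83 and -0.69 in the same order of fractions. Mfap4, a microfibril-associated protein that binds tropoelastin, was higher, by 0.28 in polysome RNA and 0.50 in total RNA, on the same side as Mfap2 and Mfap5. Itgav, an integrin subunit, was short of 2-fold on its brightest probe set, at -0.46 in polysome RNA and -0.65 in total RNA. Both of its other probe sets were past 2-fold lower, 1421198_at at -1.79 and -1.48 and 1432296_a_at at -1.94 and -1.54 in the same fractions. The last reached the floor only in Npm1+/+ polysome RNA.

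Collagens, the other substrates of the lysyl oxidases, had values below 0 for Npm1+/- minus Npm1+/+ in both fractions for all 19 of 23 listed that reached the floor, by the brightest probe set of each gene. Of all 7179 genes, 2631 lay below 0 in polysome RNA and 2415 in total RNA. The values of Col1a1 and Col1a2, chains of the main fibril collagen, were within the spread between probe sets. Another Col1a1 probe set gave 0.01 in polysome RNA. Of these 19, 4 were at least 2-fold lower in polysome RNA and 9 in total RNA, with medians of -0.88 and -0.97, where 1.17% and 1.49% of all genes were 2-fold lower in those fractions. Col4a2, a chain of basement membrane collagen, stood at 10.65 in Npm1+/- polysome RNA and 12.11 in Npm1+/+ polysome RNA, and at 10.49 in Npm1+/- total RNA and 12.02 in Npm1+/+ total RNA. Col12a1, a collagen that binds to fibril surfaces, differed by -1.12 in polysome RNA and -1.61 in total RNA. Col4a1 and Col6a3 were also past 2-fold in both fractions, and Col4a5, Col5a1, Col5a3, Col6a1 and Col11a1 in total RNA. Between fractions 0 of the 19 collagens passed 2-fold, where the all-gene shares 2-fold lower or higher were 0.362% to 0.529%. The widest fraction differences were those of Col11a1 under the Npm1+/- label, at 0.81, and of Col18a1 under the Npm1+/+ label, at 0.90. Downward, Col2a1 was lowest, at -0.63 under the Npm1+/- label and -0.83 under the Npm1+/+ label. Under the Npm1+/+ label Col12a1 followed at -0.70. Fbln2 at -0.97 in total RNA lay at the collagen median, while Mfap2, Mfap5, Loxl1 and Lox lay above 0, outside the range of the collagens in both fractions.

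Among small leucine-rich proteoglycans, 7 of 11 listed reached the floor. Of these, 1 was at least 2-fold lower in polysome RNA under each label, as the brighter Eln probe set was, and 1 was 2-fold higher. Over all genes the shares 2-fold lower or higher were 0.362% to 0.529%. Fmod was lower by less, at -0.18 under the Npm1+/- label and -0.12 under the Npm1+/+ label on its brightest probe set. Prelp, which encodes a proteoglycan of connective tissue, stood at 7.42 in Npm1+/- polysome RNA and 7.10 in Npm1+/+ polysome RNA, both below the floor, against 9.15 in Npm1+/- total RNA and 8.83 in Npm1+/+ total RNA. Its differences were -1.73 under each label, and its other probe set gave -0.86 under the Npm1+/- label and -0.68 under the Npm1+/+ label. As for Eln, the probe sets shared the direction and differed in size. Dcn, also in this list, was its 1 gene past 2-fold upward, and Aspn, which encodes asporin, followed with 0.80 under the Npm1+/- label and 0.85 under the Npm1+/+ label. The other Aspn probe set gave 0.24 and -0.05 for the same labels.

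**Figure D4:**
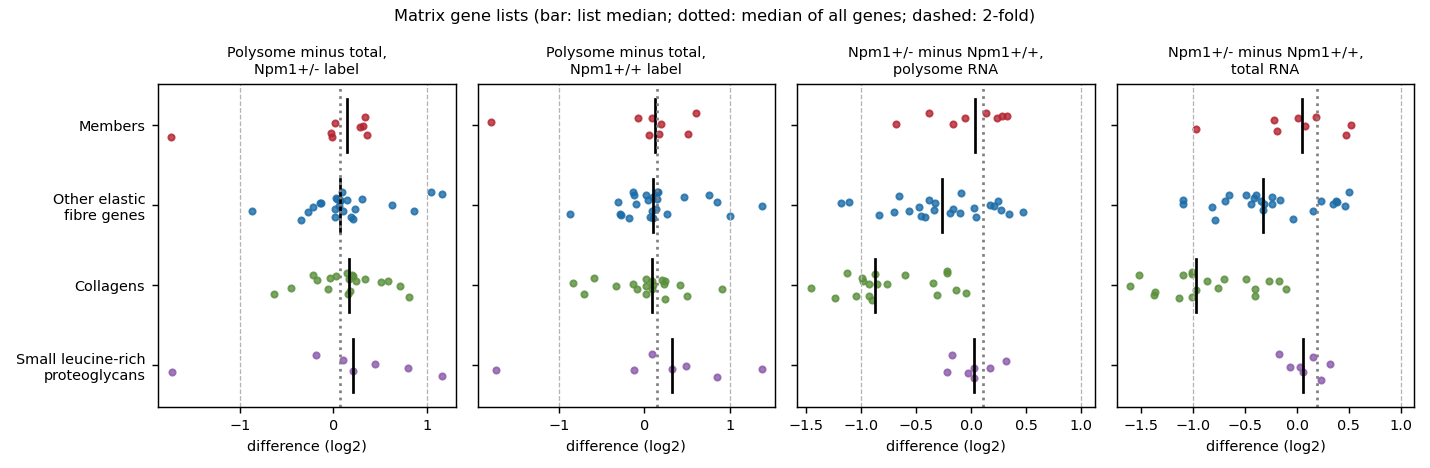
Log2 differences (x axis) of the genes at or above the floor in 4 lists (rows: 8 members, 24 other elastic fibre genes, 19 collagens, 7 small leucine-rich proteoglycans), with 1 panel per comparison, 1 point per gene, a bar at the list median, a dotted line at the median of 7179 genes and dashed lines at 2-fold. The collagens lie below 0 throughout both genotype panels, while Eln stands alone at the left among the members in both fraction panels.

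Enzymes that act on elastic fibres were taken from a list of 16 proteases and inhibitors, of which 14 reached the floor. Ctss, an elastin-degrading cathepsin of macrophages, was the 1 gene past 2-fold between fractions by the brightest probe set of each gene, at 8.12 in Npm1+/- polysome RNA and 7.86 in Npm1+/+ polysome RNA, against 5.72 in Npm1+/- total RNA and 5.43 in Npm1+/+ total RNA. The total RNA values lay below the floor, so the differences of 2.40 under the Npm1+/- label and 2.43 under the Npm1+/+ label rest on values that may not be signal. Over all genes the share 2-fold higher in polysome RNA was 0.404% under the Npm1+/- label and 0.529% under the Npm1+/+ label. Mmp9, a gelatinase that also cleaves elastin, was 0.86 higher in polysome RNA under the Npm1+/- label and 0.74 higher under the Npm1+/+ label, but of its 4 values only the one in Npm1+/+ polysome RNA reached the floor. Ctsk, Ctsl, Ctsb and Ctsd differed by at most 0.45. Between genotype labels 0 of the 14 passed 2-fold on the same probe sets, where the all-gene shares 2-fold lower or higher were 0.0836% to 1.49%. Tll1 and Bmp1, proteases that process procollagen and pro-lysyl oxidase, were lower under the Npm1+/- label, at -0.66 and -0.58 in polysome RNA and -0.78 and -0.64 in total RNA. A dimmer Bmp1 probe set, 1427457_a_at, was past 2-fold, at -1.09 in polysome RNA and -1.12 in total RNA between genotype labels, and at 1.15 under the Npm1+/- label and 1.12 under the Npm1+/+ label between fractions. Timp3, a matrix-bound protease inhibitor, was higher on its brightest probe set, by 0.54 in polysome RNA and 0.63 in total RNA, while probe set 1419088_at gave -0.20 and -0.17.

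Genes of TGF-beta signalling, a pathway that raises elastin and lysyl oxidase expression in fibroblasts, were listed under 17 symbols, of which 15 were measured. Ctgf, a listed symbol without a probe set, is an older symbol of Ccn2, which was measured. By the brightest probe set of each gene, 0 of the 15 differed 2-fold in any comparison. The all-gene shares 2-fold lower or higher were 0.362% to 0.529% between fractions and 0.0836% to 1.49% between genotype labels. Another probe set of Smad4, a signal transducer, gave 0.69 in polysome RNA and 1.06 in total RNA for Npm1+/- minus Npm1+/+. Tgfb1, a ligand, was 0.44 higher in polysome RNA under the Npm1+/- label and 0.63 higher under the Npm1+/+ label. It was also higher under the Npm1+/- label, by 0.42 in polysome RNA and 0.61 in total RNA. Tgfbi, a secreted target, was on the other side, at -0.65 in polysome RNA and -0.61 in total RNA. The receptor Tgfbr2 gave 0.43 in polysome RNA and 0.56 in total RNA on its brightest probe set, but -0.43 and -0.35 on 1425444_a_at. The list medians were 0.30 in polysome RNA and 0.29 in total RNA, beside 0.11 and 0.19 over all genes.

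Taken as a sum, macrophage markers differed between the fraction labels and smooth muscle markers did not. The summed linear level of 14 macrophage markers was 4178 in Npm1+/- polysome RNA and 3196 in Npm1+/+ polysome RNA, against 1663 in Npm1+/- total RNA and 1373 in Npm1+/+ total RNA. That is 2.51 times as high in polysome RNA under the Npm1+/- label and 2.33 times under the Npm1+/+ label. Of the 9 markers at the floor, C1qa, C1qb, C1qc, Ctss, Lyz2 and Fcer1g were at least 2-fold higher under each label. Over all genes that share was 0.404% under the Npm1+/- label and 0.529% under the Npm1+/+ label. Of these 6 markers only Lyz2 reached the floor in total RNA, so the others passed it through their polysome values. Cd53, at the floor only in Npm1+/- polysome RNA, was 0.52 higher under the Npm1+/- label and 0.71 higher under the Npm1+/+ label. The probe sets that stood for Csf1r and Laptm5, at the floor on all 4 arrays, differed by -0.22 and 0.04 under the Npm1+/- label and by 0.05 and 0.14 under the Npm1+/+ label. Other probe sets of both genes were higher in polysome RNA. Csf1r 1419872_at, also at the floor on all 4 arrays, gave 0.26 under the Npm1+/- label and 0.37 under the Npm1+/+ label. Laptm5 1426025_s_at gave 0.44 and 0.27 for the same labels, and 1436905_x_at, below the floor on all 4 arrays, gave 1.66 and 1.45. The defining markers Ptprc and Adgre1 were below the floor on all 4 arrays. The summed level of 8 smooth muscle markers, a cell type that makes elastin, was 53100 in Npm1+/- polysome RNA and 48310 in Npm1+/+ polysome RNA, against 52528 in Npm1+/- total RNA and 47977 in Npm1+/+ total RNA, a ratio of 1.01 under each label. Acta2 and Tagln, at 14.12 to 14.36, weigh most in this sum and lie near the top of the arrays. By gene, the 7 markers at the floor ran between -0.28 and 0.24 under the Npm1+/- label and between -0.21 and 0.24 under the Npm1+/+ label. Of these 7, 5 lay above 0 and 2 below it under each label. Of all 7179 genes, 4673 lay above 0 under the Npm1+/- label and 5424 under the Npm1+/+ label. Against the median gene, 3 of the 7 lay above it under the Npm1+/- label and 2 under the Npm1+/+ label. The summed level of 12 fibroblast markers was 90255 and 91261 in polysome RNA of the Npm1+/- and the Npm1+/+ label, against 81830 and 84762 in total RNA. For 7 chondrocyte markers, also cells that can make elastin, it was 1178 in Npm1+/- polysome RNA and 1664 in Npm1+/+ polysome RNA, against 1573 in Npm1+/- total RNA and 2623 in Npm1+/+ total RNA, with 1 marker, Col2a1, at the floor. Endothelial and epithelial markers had 1 gene each at the floor, and their sums stayed between 457 and 655. The part of any of these in the elastin difference was not tested.

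Control probe sets moved with the fraction too. The 18 hybridisation spike probe sets, which report RNA added at a fixed amount, had a median polysome minus total difference of 0.26 under the Npm1+/- label and 0.38 under the Npm1+/+ label. They ran between -0.11 and 0.45 under the Npm1+/- label and between 0.10 and 0.61 under the Npm1+/+ label, and the differences of Mfap2, Loxl1 and the brighter Mfap5 probe set lay inside those ranges. The elastin difference lay far below them. The 3′ minus 5′ difference of the Gapdh control, a check of RNA integrity, was -0.02 in Npm1+/- polysome RNA and -0.09 in Npm1+/+ polysome RNA, against 0.12 in Npm1+/- total RNA and -0.01 in Npm1+/+ total RNA. For beta-actin it lay between 0.01 and 0.06 on all arrays, and for the transferrin receptor control between 1.47 and 1.72. The pyruvate carboxylase control, in contrast, gave 0.11 in Npm1+/- polysome RNA and 0.25 in Npm1+/+ polysome RNA, against 0.27 in Npm1+/- total RNA and 0.49 in Npm1+/+ total RNA, lower in polysome RNA under each label. Their part in the member differences was not tested.

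The genes whose profile over the 4 arrays lay nearest to that of Eln, by Euclidean distance between values centred on each gene's mean, were Cdh13 at 0.161, Anxa8 at 0.278, Aldh1a7 at 0.355, Gjb2 at 0.356 and Selp at 0.433. Anxa8, an annexin, stood at 9.29 in Npm1+/- polysome RNA and 9.38 in Npm1+/+ polysome RNA, against 10.80 in Npm1+/- total RNA and 10.89 in Npm1+/+ total RNA. Gjb2, a gap junction protein, stood at 9.61 in Npm1+/- polysome RNA and 9.43 in Npm1+/+ polysome RNA, against 11.34 in Npm1+/- total RNA and 11.21 in Npm1+/+ total RNA. The other 3 lay below the floor in polysome RNA. For Lox the nearest were Casc3, Rasal2, Ddhd2, Rusc2 and Slc35e4, at distances of 0.018 to 0.033, all with profiles as flat as its own. These likenesses rest on 4 values each.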

How the data were processed

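Expression was measured on 4 Affymetrix 3′ arrays of mouse embryonic fibroblasts, 1 per group. The deposited table holds log2 values for 22690 probe sets, made by the authors with RMA (affy 1.56.0, R 3.4.3), per the submitters' processing notes. The settings and genome build are not given in the sources used here. T7 RNA polymerase amplified the RNA and biotin marked it, per the labels' protocols.

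Symbols came from the platform annotation: 20380 probe sets had 1 symbol, 691 several and 1555 none listed, and 64 controls were left out. Symbols were checked by Entrez number in RefSeq (20351 found, 0 changed). The probe set of highest mean stood for a gene. All members were named. From other lists, genes past 2-fold and some of those with the largest differences were named in the comparisons described. The 5 genes nearest to Eln and to Lox were named too. Members and lists were chosen with earlier results of these data known. Differences of log2 values were counted at 2-fold. Depth has no counterpart on arrays, and their number limits the precision. Alternatives were other probe set choices, floors, scalings and thresholds. The calculation (Python 3.11.15, pandas 2.3.3, numpy 2.4.6, statsmodels 0.14.6) was tested on simulated data. Protein sequences were not used here.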

Additional observations from a re-analysis of the deposited data

Results flagged for a closer look

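Polysome minus total RNA of Fbln1 was -0.02 under the Npm1+/- label and 0.17 under the Npm1+/+ label, opposite signs with 1 array per group, and the difference was not tested. Npm1+/- minus Npm1+/+ of Fbln5 was -0.06 in polysome RNA and 0.01 in total RNA, again opposite signs, and the difference was not tested. Each of these values is smaller than the SD between probe sets of 1 gene.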

How the results depend on the processing

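No paired analysis was possible because the groups compared share only 1 replicate number, and with 1 array per group no replicate could be left out. Of 275 member values recomputed under other probe set choices, floors and scalings, 0 called values reversed and 14 small ones changed sign. The 2 that moved by more than the spread between probe sets were those of Eln with the mean of all probe sets, at -1.23 under the Npm1+/- label and -1.30 under the Npm1+/+ label. Over all settings Eln stayed between -1.83 and -1.23 under the Npm1+/- label and between -1.95 and -1.30 under the Npm1+/+ label. With a loess trend subtracted, 1 member, Fbln2, was 2-fold lower under the Npm1+/- label in total RNA. At 1.5-fold, 1 member was higher in polysome RNA under the Npm1+/+ label (Mfap2), and 1, Fbln2, was lower under the Npm1+/- label in each fraction. At a floor of 9.33 (75th percentile) Fbln1 drops out. Scaling moved the median gene of polysome minus total RNA under the Npm1+/+ label by -0.12 (centring) to -0.14 (loess), and that of total RNA between genotype labels by -0.11 (quantile) and -0.16 (loess), but by -0.0021 on centring. Over all genes, loess gave 44 lower and 27 higher for polysome minus total RNA under the Npm1+/+ label (28 and 38 without it), 41 and 23 under the Npm1+/- label (26 and 29), and for the genotype labels 192 and 5 in total RNA (107 and 17) and 129 and 3 in polysome RNA (84 and 6).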
